A study of Mus musculus with 6 samples.

Results

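The genes of the mitochondrial respiratory chain were taken as all probes of the array whose gene name began with NDUF, with SDH and a letter from A to D, with UQCR, with COX and a digit from 4 to 8, or with ATP5. The rule used names only and gave 119 of 45281 probes, for 81 genes. RNA levels came from Illumina bead arrays. The cells were carcinoma epithelium, kept briefly in culture after explant from the pancreatic tumour of a KPC-Brca1 mouse. The study left 3 plates untreated and exposed 3 to decitabine (5-aza-dC, DAC) at 0.5 µM over 48 h. Decitabine is a nucleoside that cells incorporate during replication and that binds DNA methyltransferases covalently, so that methylation is lost as cells divide. Both groups share the tumour genotype named KPC-Brca1, whose alleles, like the sex and age of the mouse, are not given in the sources used here. All plates are named as replicates of an explant culture, so the p-values rest on variation among plates, possibly technical, and say nothing of variation among mice.

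The respiratory chain passes electrons from NADH, through complex I, and from succinate, through complex II, to ubiquinone, then through complex III and cytochrome c to complex IV, which reduces oxygen. Complexes I, III and IV pump protons across the inner mitochondrial membrane, and complex V, the ATP synthase, uses the gradient to make ATP. Most subunits are encoded in the nucleus and are expressed in nearly all cell types, while some subunits of complex IV have isoforms restricted to muscle, lung or testis. In tumour cells the chain is known both as a source of ATP and as the route by which electrons are removed for the synthesis of aspartate and pyrimidines.

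Few respiratory chain transcripts passed the test after DAC, and most intervals lay within 2-fold of the untreated level. Of 99 probes bright enough to be tested, 3 fell and 0 rose (limma, Benjamini-Hochberg adjusted p under 0.05), or 3.03%, where 15.0% of all 21415 tested probes were called, 8.34% upward and 6.62% downward. Among them were probes of Cox7a2l, a factor of supercomplexes of complexes III and IV, and of Dmac2l, an accessory factor of the ATP synthase listed on the array as ATP5S. At an unadjusted p under 0.05, 15 member probes (15.2%) differed, 5 above and 10 below their untreated level, against 30.5% of all tested probes (14.2% above and 16.3% below). The median log2 fold change, DAC minus untreated, was -0.03 over the members and -0.05 over all tested probes, and the median size of the change regardless of sign was 0.12 against 0.23. With median scaling in place of quantile normalization the 2 medians were -0.16 and -0.14.

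The intervals show how large a change these arrays still allow. The 95% interval of the log2 fold change lay within 2-fold in either direction for 95 of the 99 member probes (96.0%, against 85.6% of all tested probes) and within 1.5-fold for 66 (66.7%, against 46.0%). The 4 probes whose interval passed 2-fold were those of Ndufaf2, whose interval ended at 1.09 on the log2 scale, of Atp5e, at 1.08, 1 of 2 probes of Ndufa5, at 1.01, and the tested probe of Ndufb2, at -1.01. None of the 99 had a fitted change of 2-fold, which 3.53% of all tested probes had. The groups did not overlap for 27 members (27.3%, against 34.9% of all tested probes), with DAC higher for 9 and lower for 18 (15.7% and 19.2% of all tested probes).

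**Figure D1:**
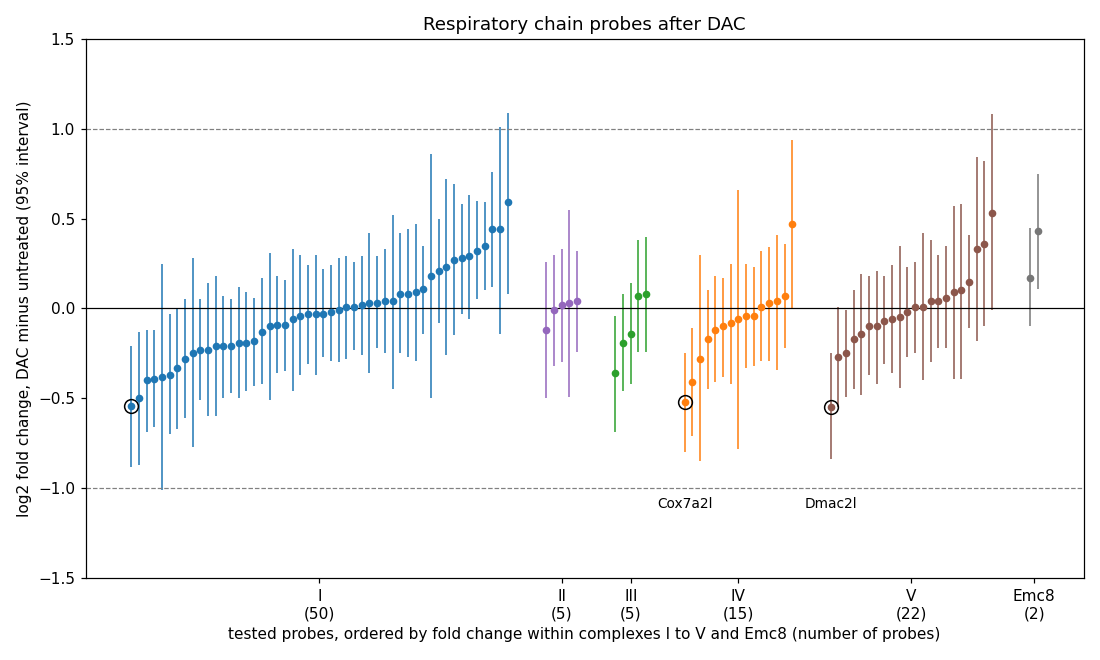
Log2 fold change (DAC minus untreated, vertical axis) with its 95% interval for the 99 tested probes, ordered within complexes I to V and Emc8. Circles mark the 3 probes that passed the test, the dashed lines mark 2-fold, and 95 intervals lie within them.

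The promoters of these genes are shown because decitabine lowers DNA methylation, which in mammalian cells lies mostly at cytosines of CG steps. RefSeq promoter windows (GRCm38.p6, 250 bases before to 50 after the start of transcription) were matched by symbol for 66 of the 81 genes. They hold a median of 19.5 CG steps in 72 windows, against 7 in all 32851 windows. The 4 restricted isoforms with a window hold a median of 8.5, from 2 to 10. Shown are the called genes Dmac2l and Cox7a2l, the ubiquitous complex IV subunit Cox7a2 and its muscle and heart counterpart Cox7a1, and the testis isoforms Cox6b2 and Cox7b2, which were not bright enough to be tested, 5′ to 3′ on the gene's strand, with every CG step in capitals.
Dmac2l promoter, chr12:69724695-69724994, plus strand: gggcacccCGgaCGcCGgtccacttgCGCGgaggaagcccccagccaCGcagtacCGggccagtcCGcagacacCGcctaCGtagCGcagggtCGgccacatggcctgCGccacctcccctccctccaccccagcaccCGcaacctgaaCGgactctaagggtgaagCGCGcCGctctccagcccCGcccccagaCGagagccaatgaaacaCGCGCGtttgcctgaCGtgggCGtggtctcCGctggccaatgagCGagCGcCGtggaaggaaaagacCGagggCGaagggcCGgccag
Cox7a2l promoter, chr17:83514284-83514583, minus strand: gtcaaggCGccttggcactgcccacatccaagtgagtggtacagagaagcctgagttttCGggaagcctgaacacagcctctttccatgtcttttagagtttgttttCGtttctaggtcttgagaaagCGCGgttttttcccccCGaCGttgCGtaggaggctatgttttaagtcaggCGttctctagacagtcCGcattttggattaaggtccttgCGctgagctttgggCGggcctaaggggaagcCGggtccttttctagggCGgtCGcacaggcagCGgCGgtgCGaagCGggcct
Cox7a2 promoter, chr9:79759804-79760103, minus strand: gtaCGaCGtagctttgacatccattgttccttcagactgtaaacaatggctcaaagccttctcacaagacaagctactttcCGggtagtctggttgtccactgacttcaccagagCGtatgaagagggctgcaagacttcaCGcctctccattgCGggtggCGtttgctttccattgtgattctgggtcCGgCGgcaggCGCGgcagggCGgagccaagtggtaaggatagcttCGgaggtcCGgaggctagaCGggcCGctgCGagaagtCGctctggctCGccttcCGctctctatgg
Cox7a1 promoter, chr7:30183921-30184220, plus strand: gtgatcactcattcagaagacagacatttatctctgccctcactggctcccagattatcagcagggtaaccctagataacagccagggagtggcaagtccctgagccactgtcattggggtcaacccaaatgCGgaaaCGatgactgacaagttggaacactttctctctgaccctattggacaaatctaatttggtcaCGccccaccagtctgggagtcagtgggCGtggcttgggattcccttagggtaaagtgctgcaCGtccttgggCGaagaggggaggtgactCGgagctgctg
Cox6b2 promoter, chr7:4753045-4753344, minus strand: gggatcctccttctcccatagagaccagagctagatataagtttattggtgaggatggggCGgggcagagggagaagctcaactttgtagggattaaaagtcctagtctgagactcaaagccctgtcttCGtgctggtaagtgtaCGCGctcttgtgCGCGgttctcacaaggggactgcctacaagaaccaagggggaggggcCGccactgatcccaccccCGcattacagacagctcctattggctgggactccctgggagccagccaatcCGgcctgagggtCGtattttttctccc
Cox7b2 promoter, chr5:71548156-71548455, minus strand: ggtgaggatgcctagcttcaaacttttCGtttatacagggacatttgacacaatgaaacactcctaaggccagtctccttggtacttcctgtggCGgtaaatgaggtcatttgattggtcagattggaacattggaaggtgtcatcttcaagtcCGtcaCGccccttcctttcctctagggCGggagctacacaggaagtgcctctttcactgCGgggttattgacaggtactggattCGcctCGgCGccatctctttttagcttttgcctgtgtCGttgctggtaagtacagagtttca
The Dmac2l window holds 32 CG steps, that of Cox7a2l 19, that of Cox7a2 20, that of Cox7a1 7, and those of Cox6b2 and Cox7b2 10 each. The letters of the core of the binding site of NRF1, a factor known to drive many respiratory genes, GCATGCGC, on either strand, were found in 10 of 72 member windows (13.9%), against 2.71% of all windows. A form of 10 letters with 1 free position had been searched first and was found in 17 (23.6%), against 4.60%, so the count depends on the form. The ETS core CCGGAAG, on either strand, which the factor GABP binds, was found in 16 (22.2%), against 8.86%. Neither was found in the 6 windows printed here. Such matches describe letters, and methylation was not measured.

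Every member was accounted for. Of the 119 probes, 99 were detected on at least 3 of 6 arrays and were tested, for 71 genes, and 16 were detected on no array. None passed through a single group, since each tested probe was detected on all 6 arrays except 1 of the 3 Sdhb probes, which was detected on 2 arrays of each group. The 10 genes without a tested probe were 6 restricted isoforms of complex IV and the subunit genes Ndufs1, Sdha, Uqcrfs1 and Uqcrq. These 4 encode parts that a working chain needs, and their 6 probes were detected on no array, apart from 1 Sdha probe seen on 1 untreated array, so the probes give no level for them. Of 22 genes with several tested probes, 15 had all probes on the same side of 0, and the probes of a gene differed by a median of 0.12 and at most by 0.54 (log2 fold change). The annotation lists pseudogene copies of several members, among them Atp5k, Atp5l, Uqcrh and Cox5b, and their probes may also bind such transcripts. A single matching gene lies outside the chain, Emc8, listed as COX4NB, a subunit of the endoplasmic reticulum membrane complex, with 2 probes at 0.17 ± 0.12 and 0.43 ± 0.14 (log2 fold change, SE, n = 3 per group), neither of which passed.

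The arrays themselves differed in ways that touch these genes. Untreated replicate 1 stood apart, with the highest mean intensity, 460 against 313.2 to 360.7 on the other arrays, and a correlation of log2 signals over the 21415 tested probes of 0.976 and 0.977 with untreated replicates 3 and 2, which correlated at 0.997 with each other. The share of probes detected ran from 43.9%, on untreated replicate 1, to 47.4%. Keratin genes of epithelium were bright, with Krt8, Krt18 and Krt19 between 12.21 and 13.80 (log2 signal) on every array, and Cdh1 was detected on all 6 arrays, whereas the single probe of Epcam was detected on none. Fewer cells of a type and less RNA per cell cannot be told apart in such bulk samples.

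Members were high on the array of untreated replicate 1. For 64 of 99 member probes (64.6%) this array gave the highest of the 3 untreated values, against 48.4% of all tested probes, and it exceeded the mean of the other 2 by more than 0.5 (log2) for 18 (18.2%, against 10.4%). The median excess was 0.21 over the members and 0.04 over all tested probes. Cox7b, a small subunit of complex IV, read 8.16 there and 7.18 and 7.12 on the other untreated arrays, with 6.94, 7.67 and 7.66 on the DAC arrays (log2 signal). Its untreated values thus enclose all but 1 of its DAC values. Ndufb4, of the membrane arm of complex I, read 6.97, 5.94 and 6.03 untreated and 6.10, 6.75 and 6.63 with DAC, again with the first untreated array highest.

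**Figure D2:**
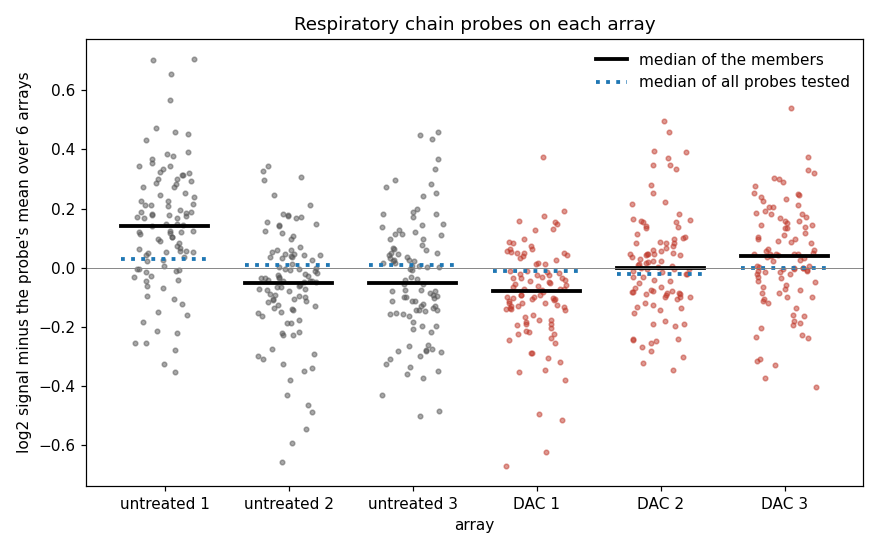
Log2 signal of each of the 99 tested member probes minus its own mean over the 6 arrays (vertical axis) for each array (horizontal axis), with the median of the members (black line) and of all tested probes (dotted line). The members' median was 0.14 on untreated replicate 1, -0.05 on untreated replicates 2 and 3, and -0.08, 0.00 and 0.04 on DAC replicates 1 to 3.

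Without untreated replicate 1 more members passed. In that fit 10 probes rose and 9 fell, 19.2% of the members, where 29.7% of all tested probes passed, 14.3% upward and 15.5% downward. The falls of Cox7a2l and Dmac2l were among the 9. The untreated spread of that fit is the spread between untreated replicates 2 and 3 alone, which correlated at 0.997. Every pass without untreated replicate 1 given below rests on these nearly alike arrays. With these replicates averaged as 1 sample beside untreated replicate 1, 0 members passed, against 6.84% of all tested probes. When untreated replicate 2 or 3 was left out, 0 members rose and 0 fell, against 6.47% and 6.78% of all tested probes called. The same held without DAC replicate 2 or 3, against 6.39% and 7.57%. Without DAC replicate 1, 1 member rose and 2 fell, or 3.03%, against 12.2% of all tested probes. No batch or slide is given in the sources used here, so within-batch values could not be computed.

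**Figure D3:**
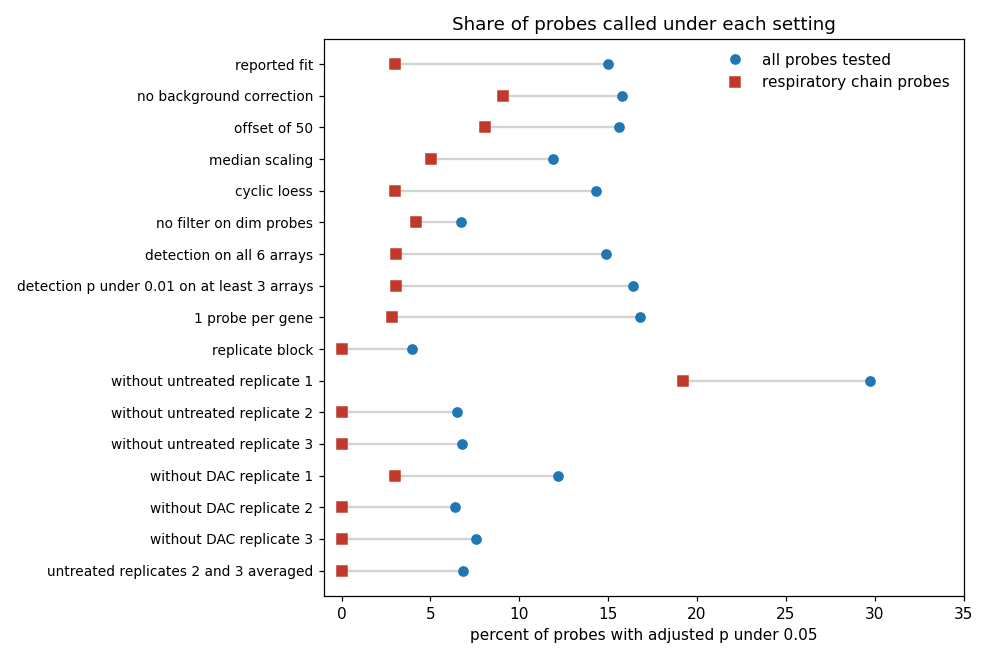
Percent of probes with an adjusted p under 0.05 (horizontal axis) under the reported fit and each alternative (vertical axis), for the 99 respiratory chain probes (squares) and all tested probes (circles). The members' share was 3.03% in the reported fit, 19.2% without untreated replicate 1 and 0.00% in 6 of the alternatives, and the share of all tested probes was the higher of the 2 in each setting.

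Complex I, the NADH dehydrogenase, was represented by 54 probes of 37 genes, of which 50 probes were tested. Of these 1 fell and 0 rose (9 of 50 at an unadjusted p under 0.05, against 30.5% of all tested probes), with a median log2 fold change of -0.03 and a highest value of 0.59.

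Ndufs3, a core subunit of the hydrophilic arm, read 10.59, 11.03 and 10.94 untreated and 10.52, 10.44 and 10.60 with DAC, at -0.33 ± 0.14 (adjusted p = 0.164, limma). Only the first untreated value reached into the DAC range, and without that array the probe passed, at -0.47 (adjusted p = 0.0204, limma). The flavin-binding subunit Ndufv1 was at -0.01 ± 0.13 and its partner Ndufv2 at 0.04 ± 0.12, while Ndufs8 and Ndufs7, which hold iron-sulfur clusters, were at -0.02 ± 0.12 and -0.23 ± 0.16 (log2 fold change, SE, n = 3 per group). The intervals of Ndufv1, Ndufv2 and Ndufs8 lay between -0.30 and 0.33.

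Accessory subunits of complex I did not pass in the reported fit. Of 16 tested probes of the NDUFA series 0 passed, with a median of 0.01, and of 18 of the NDUFB and NDUFC series 0 passed, with a median of -0.10. Over all tested probes 15.0% passed. At an unadjusted p under 0.05 (limma), 2 of the 16 and 4 of the 18 differed, against 30.5% of all tested probes. Ndufa8, with the twin cysteine motifs of intermembrane space proteins, read 10.35, 10.07 and 10.22 untreated and 10.57, 10.53 and 10.52 with DAC on 1 probe, at 0.32 ± 0.12 (adjusted p = 0.11, limma), and 0.28 ± 0.13 on the other. Both Ndufa8 probes kept the groups apart, and both passed without untreated replicate 1, at 0.39 and 0.37. Ndufb10 read, on its brighter probe, 9.78, 9.46 and 9.53 untreated and 9.86, 10.09 and 10.14 with DAC, at 0.44 ± 0.14 (adjusted p = 0.0719, limma), and passed without that array, at 0.53. Its other probe was at 0.27 ± 0.18, with overlapping groups, and did not pass without that array (adjusted p = 0.0662, limma). In the other direction Ndufa6, a LYR-motif subunit, was at -0.40 ± 0.12 (adjusted p = 0.0665, limma), and Ndufb11 at -0.39 ± 0.12 (adjusted p = 0.0602, limma) on 1 probe and -0.23 ± 0.12 on the other. Both Ndufa6 and that Ndufb11 probe passed without untreated replicate 1, at -0.44 and -0.42. Ndufc1 was at -0.37 ± 0.14 on 1 probe, which passed without that array, at -0.48 (adjusted p = 0.0243, limma), and at -0.06 ± 0.17 on the other, which did not. Ndufa5 was at 0.29 ± 0.15 and 0.44 ± 0.25 on its 2 probes, and both passed without that array, at 0.43 and 0.71 (adjusted p = 0.026 and 0.0181, limma). The 2 probes of Ndufb8 disagreed, at 0.35 ± 0.11 and -0.09 ± 0.11.

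The assembly factors of complex I among the members were Ndufaf1, Ndufaf2, listed as NDUFA12L, and Dmac2, listed as ATP5SL. Ndufaf2, a chaperone of late assembly, had the highest fitted value of all members, with 9.62, 9.14 and 9.07 untreated and 9.45, 10.03 and 10.11 with DAC, at 0.59 ± 0.22 (adjusted p = 0.113, limma). The groups overlapped through untreated replicate 1 and DAC replicate 1, and without the former the probe passed, at 0.76 ± 0.20 (adjusted p = 0.0239, limma). Ndufaf1 was at 0.08 ± 0.15 and Dmac2 at -0.28 ± 0.14, and neither passed.

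Complex II, the succinate dehydrogenase, which also serves the citric acid cycle, had 5 tested probes, of which 0 passed, and 0 at an unadjusted p under 0.05 (limma; 30.5% of all tested probes). The iron-sulfur subunit Sdhb read 10.15, 10.37 and 10.41 untreated and 10.43, 10.30 and 10.33 with DAC on its brightest probe, at 0.04 ± 0.12, with an interval from -0.24 to 0.32. The groups overlapped, and the other 2 Sdhb probes were at 0.02 and -0.01. The membrane anchors Sdhc and Sdhd were at -0.12 ± 0.16 and 0.03 ± 0.22.

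Complex III, the cytochrome bc1 complex, had 5 tested probes, of which 0 passed, and 1 at an unadjusted p under 0.05 (limma; 30.5% of all tested probes), with a median of -0.14. The core proteins Uqcrc1 and Uqcrc2 were at 0.07 ± 0.14 and -0.19 ± 0.12. Uqcrh, the hinge protein at the docking site of cytochrome c, read 12.45, 12.08 and 12.07 untreated and 11.73, 11.92 and 11.86 with DAC, at -0.36 ± 0.14 (adjusted p = 0.129, limma). Its groups did not overlap, and the first untreated value lay well above the other 2. Uqcrb and Uqcr11, listed as UQCR, were at -0.14 and 0.08.

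Complex IV, cytochrome c oxidase, had 23 probes of 17 genes, counting Ndufa4, which bears a complex I name but is now assigned to complex IV. Of 15 tested probes 1 fell and 0 rose (2 at an unadjusted p under 0.05, against 30.5% of all tested probes), with a median of -0.06. Cox7a2l read 12.10, 11.97 and 12.07 untreated and 11.66, 11.44 and 11.48 with DAC (log2 signal). The lowest untreated value lay above the highest DAC value, and the array that stood apart did not stand apart here. The probe fell by 0.52 ± 0.12 (log2, SE, n = 3 per group; adjusted p = 0.0234, limma). The other Cox7a2l probe read 12.26, 12.51 and 12.63 untreated and 12.07, 12.01 and 12.10 with DAC, at -0.41 ± 0.13 (adjusted p = 0.0741, limma), again with no overlap. Both passed without untreated replicate 1, at -0.50 and -0.52, but the first did not when replicate 2 or 3 of either group was left out. In those fits the first probe's fitted change ran from -0.56 to -0.48, with an SE of 0.14 or 0.15.

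**Figure D4:**
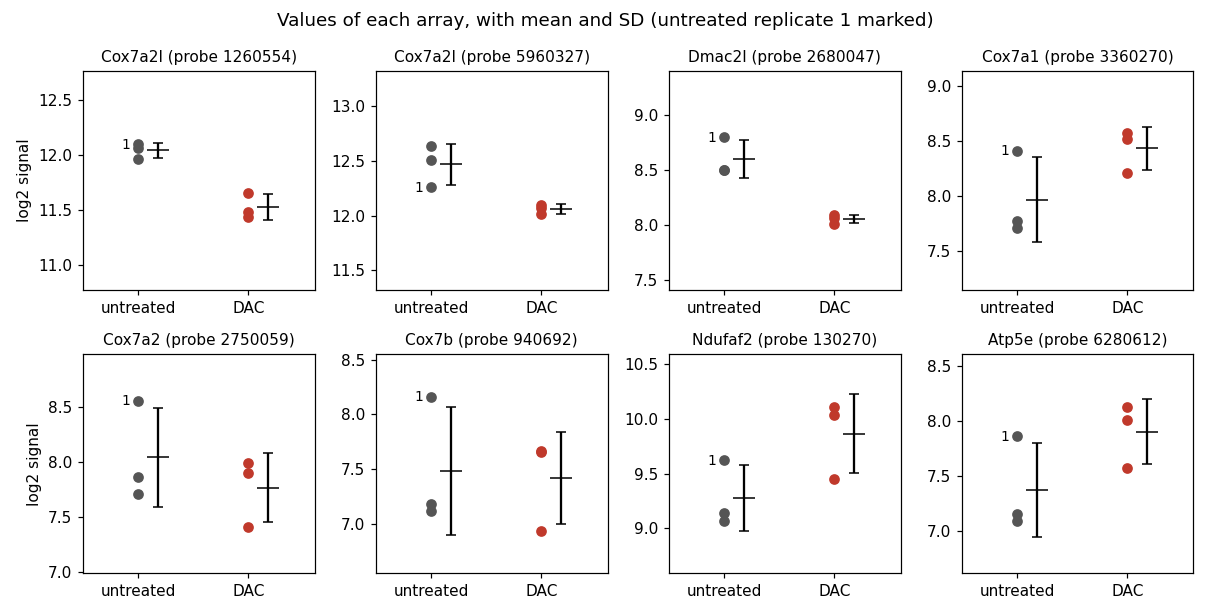
Log2 signal (vertical axis) of each array for 8 member probes in untreated and DAC plates, with mean and SD (n = 3) beside the points and untreated replicate 1 marked by its number; each panel spans 2 log2 units. The DAC points of Cox7a2l and Dmac2l lie below all untreated points, and for Ndufaf2, Atp5e, Cox7a1, Cox7a2 and Cox7b the marked array is the highest untreated one.

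The ubiquitous subunits of complex IV did not pass. Cox4i1, which binds the regulatory nucleotides, was at -0.04 ± 0.13, Ndufa4 at 0.04 ± 0.16, Cox6a1 at -0.08 ± 0.15 and -0.04 ± 0.12 on its 2 probes, and Cox6b1, which joins the 2 monomers of the enzyme, at 0.07 ± 0.13 and 0.03 ± 0.14. Cox7a2 read 8.56, 7.86 and 7.71 untreated and 7.41, 7.99 and 7.90 with DAC, at -0.28 ± 0.25, and Cox7b was at -0.06 ± 0.31. These last were the least precise of the group, and both had the first untreated array highest.

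Of the restricted isoforms a single one was bright enough to be tested. The testis isoforms Cox7b2 and Cox8c, the muscle and heart isoforms Cox6a2 and Cox8b, and Cox4i2, the isoform of lung, were detected on 0 of 6 arrays, and 1 of 2 probes of the testis isoform Cox6b2 was detected on 1 array of each group. Their log2 signals lay between 4.21 and 5.09, and a probe below detection gives only a bound. The germ-line genes of energy metabolism Cyct, Slc25a31, Pdha2, Pgk2, Ldhc and Gapdhs were likewise detected on 0 of 6 arrays. Cox7a1, the muscle and heart counterpart of Cox7a2, was detected on all 6 arrays and read 8.41, 7.71 and 7.77 untreated and 8.21, 8.57 and 8.52 with DAC. The value of untreated replicate 1 lay within the DAC range, and the difference of 0.47 ± 0.21 did not pass (adjusted p = 0.166, limma), whereas without that array it did, at 0.69 ± 0.14 (adjusted p = 0.00942, limma). Of 10 muscle markers 8 were detected on no array, Ckm, Acta1 and Mb among them, and the remaining Tnni2 and Myog were at -0.32 and -0.25 and did not pass, with a summed linear signal of the list of 226 to 242 untreated and 221 to 223 with DAC.

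Complex V, the ATP synthase, had 24 probes of 15 genes, of which 22 were tested. Of these 1 fell and 0 rose (2 of 22 at an unadjusted p under 0.05, against 30.5% of all tested probes), with a median of -0.01 and a range from -0.55 to 0.53. Dmac2l, known as coupling factor B, with 32 CG steps in its window, read 8.80, 8.50 and 8.50 untreated and 8.01, 8.06 and 8.09 with DAC (log2 signal). The DAC values lay close together and below all untreated values. The probe fell by 0.55 ± 0.13 (log2, SE, n = 3 per group; adjusted p = 0.0256, limma), and by 0.45 without untreated replicate 1. It did not pass when any other array was left out, with adjusted p from 0.0654 to 0.0938 (limma). The fitted change in those fits ran from -0.60 to -0.52, with an SE of 0.15 or 0.16.

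The alpha and beta subunits did not pass. Atp5a1, the alpha subunit, read 10.26, 10.20 and 10.27 untreated and 10.16, 10.31 and 10.38 with DAC, at 0.04 ± 0.11. Atp5b, the beta subunit, read 13.81, 13.76 and 13.68 untreated and 13.98, 13.84 and 13.87 with DAC, at 0.15 ± 0.11 (adjusted p = 0.402, limma). The groups of Atp5b did not overlap, with DAC higher, and its interval ran from -0.11 to 0.41. The rotor subunits Atp5c1 and Atp5d were at 0.01 ± 0.11 and -0.14 ± 0.15, and Atp5e, the epsilon subunit, at 0.53 ± 0.24 (adjusted p = 0.172, limma). The membrane ring subunits Atp5g2 and Atp5g3 were at -0.25 ± 0.10 and -0.02 ± 0.11, and the groups of Atp5g2 did not overlap, with DAC lower. Of 22 tested probes of complex V, DAC lay above all untreated values for 1 and below them for 5. Over all tested probes these shares were 15.7% and 19.2%. The 4 probes of Atp5pb, the b subunit listed as ATP5F1, ran from -0.17 to 0.36, the widest spread within a gene. Without untreated replicate 1, Atp5e, that highest Atp5pb probe and Atp5k passed, at 0.78, 0.54 and 0.56.

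The related genes of the pathway were each read from their brightest tested probe, and their calls stand beside the 15.0% of all tested probes, or 16.8% in a fit with 1 probe per gene. Of 8 chain subunits encoded in mitochondrial DNA with a probe, 0 rose and 0 fell (limma), with values from -0.14 to 0.08. MT-ND4L, the least precise, was at -0.14 ± 0.27, MT-CYTB at -0.04 ± 0.13 and MT-ND5 at 0.08 ± 0.23. Of 30 tested carriers and assembly factors outside the name rule 2 rose and 1 fell, a share below that background. Cycs, the somatic cytochrome c that links complexes III and IV, read 10.78, 10.58 and 10.49 untreated and 11.19, 11.34 and 11.27 with DAC. Every DAC value exceeded every untreated value, and Cycs rose by 0.65 ± 0.12 (log2, SE, n = 3 per group; adjusted p = 0.0118, limma). Cox18, which inserts a complex IV subunit into the membrane, rose by 0.59 ± 0.11 (adjusted p = 0.00998, limma). Nubpl, an iron-sulfur assembly factor of complex I, was detected on 3 of 3 untreated and 0 of 3 DAC arrays. It thus met the filter through the untreated group alone. Its fitted change of -0.54 ± 0.13 (adjusted p = 0.0278, limma) uses DAC values below detection. The bound, which was not itself tested, is a drop of at least 1.13-fold. The calls on Cox18, Cycs and Nubpl were lost with median scaling, those on Cox18 and Cycs without untreated replicate 3, that on Cycs without untreated replicate 2 or DAC replicate 2, and that on Nubpl with an offset of 50 and without untreated replicate 2 or any DAC replicate. Without untreated replicate 1, 8 rose and 2 fell, in a fit where 29.7% of all tested probes passed.

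Regulators of mitochondrial biogenesis were mostly uncalled. Of 19 tested, 1 rose and 0 fell (5.26%, against 15.0% of all tested probes). Without untreated replicate 1 the counts were 5 and 0, where 29.7% of all tested probes passed. Tfb1m, the methyltransferase of mitochondrial ribosomal RNA, rose by 0.79 ± 0.19 (adjusted p = 0.0274, limma), from 6.43, 6.13 and 5.97 to 6.62, 7.13 and 7.15, and the call was lost without the filter on dim probes and when replicate 2 or 3 of either group was left out. Gabpa, a factor at many respiratory promoters, was at 0.42 ± 0.12 (adjusted p = 0.0594, limma), and Tfam, which packages mitochondrial DNA, at -0.24 ± 0.13. Of 69 tested genes of the mitochondrial ribosome 1 rose and 0 fell. Without untreated replicate 1 the counts were 9 and 3, again beside 29.7% of all tested probes. The gene that rose in the reported fit was Mrpl1, at 0.40 ± 0.11 (adjusted p = 0.045, limma). Mrps6 and Mrps27 missed the threshold at -0.40 ± 0.11 and -0.41 ± 0.12 (adjusted p = 0.0504 and 0.0511, limma). Median scaling ended the call on Mrpl1, as did leaving out any array but untreated replicate 1.

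Of 16 tested genes of pyruvate entry and the citric acid cycle, which feed the chain, 1 rose and 2 fell (18.8%), a share near the 15.0% of all tested probes and the 16.8% with 1 probe per gene. Mdh2, the mitochondrial malate dehydrogenase, rose by 0.50 ± 0.11 (adjusted p = 0.0235, limma). Idh2, the NADP-dependent isocitrate dehydrogenase, read 11.08, 10.92 and 10.91 untreated and 10.10, 10.50 and 10.46 with DAC. Idh2 fell by 0.62 ± 0.14 (adjusted p = 0.0258, limma), and Suclg2, of the GTP-forming succinate-CoA ligase, by 0.58 ± 0.16 (adjusted p = 0.0454, limma). The calls on Idh2 and Suclg2 were lost when any array but untreated replicate 1 was left out, that on Suclg2 also with cyclic loess and without the filter on dim probes, and that on Mdh2 with median scaling and when replicate 2 or 3 of either group was left out. Without untreated replicate 1, 2 rose and 4 fell, in a fit where 29.7% of all tested probes passed.

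Markers of other cell types were measured beside these genes. Of 10 fibroblast markers 3 were tested and Col1a1 and Acta2 rose, by 2.22 ± 0.25 and 2.23 ± 0.23, while Dcn, Lum, Pdgfrb and Thy1 were detected on no array, and the summed linear signal of the list ran from 480 to 515 untreated and from 1412 to 1855 with DAC. Of 9 leukocyte markers on the array 4 were tested, of which Fcgr3 rose by 1.24 ± 0.14 and Cd14 fell by 0.60 ± 0.11. Laptm5, detected on 0 of 3 untreated and 3 of 3 DAC arrays, met the filter through the DAC group alone. Its call upward uses untreated values below detection. The bound, at least 3.93-fold higher with DAC, was not itself tested. Ptprc, Adgre1 and Cd3e were detected on no array (sums of the list of 1716 to 1764 untreated and 1454 to 1555 with DAC). Of 7 endothelial markers Esam alone was tested and rose by 1.14 ± 0.14, and Pecam1, Cdh5 and Kdr were detected on no array (157 to 162 and 194 to 212). Of 10 acinar and endocrine markers 3 were tested and 0 passed (limma). Their part in the values of the respiratory chain genes was not tested.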

How the data were processed

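The samples were 3 untreated and 3 DAC-treated plates, grouped by the labelled agent. Per the labels' protocols, Trizol RNA was turned into biotin-labelled cRNA with an Ambion MessageAmp kit for Illumina arrays. Scanner software, slides and statistics are not given in the sources used here. Per the file headers, the deposited non-normalized table holds for each probe and array a mean bead intensity (linear, not scaled between arrays), a bead standard error (a signal, not used further), a count of beads (median 44 or 45 per array) and a detection p-value. The authors' second deposited table of intensity, with column medians of 7.0 or 7.1 and values down to -17.9, shares 0 identifiers with it and could not be named, so it was not used. Its scale is linear, and how it was centred is unknown.

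Intensities were corrected and normalized with limma 3.58.1 in R 4.3.3 by neqc (offset 16, quantile normalization, log2), with negative controls as the detection p-values imply them. Probes with a detection p under 0.05 on at least 3 of 6 arrays were kept (21415 of 45281). Groups were compared per probe with lmFit and eBayes without covariates, two-sided, with Benjamini-Hochberg adjustment over all kept probes and a threshold of 0.05. The fit was run on simulated data with known changes. The simulated noise was independent for each array. It thus held no array that stood apart and no nearly alike pair, and cannot speak to their effect on the calls. A gene undetected in a group has only a bound, taken against the lowest signal of any detected probe per array, 4.76 to 4.93. The number of arrays limits the precision.

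Array names were updated to RefSeq symbols (GRCm38.p6). All 81 member names matched. An item withheld from this text is counted but not reported here. Named members were called probes, those of fixed lists of core subunits and isoforms, and, named after their values were seen, other probes that passed without untreated replicate 1, whose intervals passed 2-fold or that illustrate a complex. Of each related list, the 3 genes with the lowest adjusted p were named. The members and lists were chosen with earlier results of these data known. Untreated replicates 2 and 3 were kept as separate samples as labelled, with their mean as 1 sample among the alternatives.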

Additional observations from a re-analysis of the deposited data

How the results depend on the processing

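Count results depended on which arrays were used. Leaving out 1 array at a time, 0 to 10 member probes rose and 0 to 9 fell, with 0 to 12 called in complex I, 0 to 3 in IV, 0 to 4 in V and 0 in II and III, while 994 to 3053 of all probes rose and 369 to 3310 fell. The highest counts were those without untreated replicate 1. Among the genes of the 5 related lists, in which 5 rose and 3 fell, 0 to 24 rose and 0 to 9 fell. With no background correction 3 members rose and 6 fell (5 called in complex I, 2 in IV), and with an offset of 50, 2 and 6 (5 and 2). In these fits 9.09% and 8.08% of the members were called, against 15.8% and 15.6% of all tested probes. Related genes that fell were 8 and 5 in these fits and 5 with 1 probe per gene. With median scaling 0 and 5 members were called (2 in I, 2 in IV), 1143 of all probes rose, or 45.0% of calls against 55.7%, and 1 related gene rose. The share called there was 5.05% of the members and 11.9% of all tested probes. With cyclic loess 1 member rose, and with no filter on dim probes 1 member rose, with 2 called in complexes I and V each. The members' shares called in these fits were 3.03% and 4.20%, against 14.3% and 6.74% of all probes. With 1 probe per gene 0 were called in complex IV. With untreated replicates 2 and 3 averaged, 0 members passed (0 in I, IV and V), 1032 of all probes rose and 432 fell, and 1 related gene rose and 0 fell. With the replicate number as a block, 0 members passed (0 in I, IV and V), 707 of all probes rose and 138 fell, and 0 related genes passed. The labels do not say whether the numbers pair the plates. Deviations from group means correlated at -0.61, -0.08 and -0.49 between same-numbered arrays. These correlations are linked and dominated by untreated replicate 1, which stood apart, so they cannot decide whether plates were paired. The cause of the shifts in counts was not tested. No named member that was called changed sign under any alternative. The alternative on the authors' processed values was not run, because its identifiers could not be matched. Signals near background limit the levels of the probes below detection.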
